A study of Homo sapiens with 14 samples.

Results

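The class I antigen presentation genes described here are 9 of the 58825 genes in the deposited count tables, chosen by name: HLA-B, HLA-C, HLA-E, B2M, TAP1, TAP2, TAPBP, PSMB8 and PSMB9. Each was matched by its symbol to 1 Ensembl gene identifier. RNA was sequenced from OVCAR-3, CAOV3 and SKOV3, 3 human ovarian cancer cell lines, given 2.5 µM GSK-J4 or 2.5 µM GSK-J5. GSK-J4 enters cells and inhibits KDM6A (UTX) and KDM6B (JMJD3), the demethylases that remove methyl groups from lysine 27 of histone H3, and GSK-J5 is its inactive isomer, used as the control. Each line had 3 libraries with GSK-J4 and 3 with GSK-J5 at 72 h, and OVCAR-3 also had 2 with each compound at 48 h, so 14 samples in the labels hold 22 libraries. Replicates 1 and 2 formed a first library set, whose treatment text names stripped medium, while replicate 3 belonged to a second set, for which poly(A) selection, a different RNA kit and a different medium are described. All groups grew in plates as established lines, and no library without a compound was labelled. The labels do not state whether replicates came from different cultures. The spread that the p-values rest on is that between these libraries and may be technical.

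Nearly every nucleated cell displays peptides from its own proteins on class I molecules. Proteasomes cut the proteins, and the subunits PSMB8 and PSMB9 replace PSMB5 and PSMB6 in the interferon-inducible immunoproteasome. TAP1 and TAP2 together form the transporter that carries the peptides into the endoplasmic reticulum, where tapasin (TAPBP) holds empty class I molecules next to it. HLA-B and HLA-C are classical heavy chains that show peptides to CD8 T cells and, for HLA-C above all, to natural killer cells. HLA-E is a conserved heavy chain read by the natural killer receptor NKG2A, and B2M is the light chain that all of them need. Tumours, ovarian cancers included, often carry reduced levels of this machinery.

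The promoters of genes whose levels differed between lines in the same or in opposite directions are shown first, so that their letters can be compared. RefSeq promoters on GRCh38.p14 were found for 8 of the 9 genes, and the 180 bases before the start are printed for 5 of them, 5′ to 3′ on the gene's strand. Capitals mark matches, on either strand, to GAAANNGAAA (a pattern of interferon-response elements), GGGNNTTNCC (a pattern of kB sites), TGACGC (a core of the X2 box of class I promoters) and CCAAT, read backwards as ATTGG. Matches that overlap run together.
TAP1, chr6:32853705-32853884, minus strand: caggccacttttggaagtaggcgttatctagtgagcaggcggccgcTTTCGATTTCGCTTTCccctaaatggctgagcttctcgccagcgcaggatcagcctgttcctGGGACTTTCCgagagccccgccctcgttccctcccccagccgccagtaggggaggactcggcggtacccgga
TAPBP, chr6:33314079-33314258, minus strand: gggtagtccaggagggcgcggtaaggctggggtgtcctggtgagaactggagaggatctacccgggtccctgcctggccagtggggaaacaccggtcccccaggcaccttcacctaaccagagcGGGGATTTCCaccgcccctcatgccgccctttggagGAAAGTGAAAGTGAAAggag
B2M, chr15:44711337-44711516, plus strand: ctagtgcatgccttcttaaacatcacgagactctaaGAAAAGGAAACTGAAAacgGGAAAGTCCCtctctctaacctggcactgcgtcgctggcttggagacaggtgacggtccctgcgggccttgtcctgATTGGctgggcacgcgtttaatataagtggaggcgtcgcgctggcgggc
HLA-B, chr6:31357180-31357359, minus strand: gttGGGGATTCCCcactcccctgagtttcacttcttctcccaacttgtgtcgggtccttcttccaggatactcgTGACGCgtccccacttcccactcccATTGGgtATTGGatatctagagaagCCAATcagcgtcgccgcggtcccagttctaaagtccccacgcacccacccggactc
HLA-C, chr6:31272093-31272272, minus strand: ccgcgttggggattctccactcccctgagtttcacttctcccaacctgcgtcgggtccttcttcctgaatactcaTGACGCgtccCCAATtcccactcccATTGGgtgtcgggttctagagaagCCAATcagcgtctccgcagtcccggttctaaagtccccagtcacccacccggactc

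Over the 250 bases before the start, the interferon-response pattern was found in 3.02% of the 35116 RefSeq promoters, the kB pattern in 5.07%, TGACGC in 7.67% and CCAAT in 32.0%. TAP1, TAPBP and B2M each held the interferon-response pattern as 2 overlapping matches together with 1 kB match. For TAP1, which has 2 RefSeq windows, these lay in the printed window, and the other held no match. HLA-B held a kB match and HLA-C none in this window, while both held TGACGC and CCAAT. TAP2 held 1 interferon-response match and TGACGC. PSMB9, whose RefSeq start lies 488 bases from that of TAP1 on the opposite strand, held only CCAAT, and no match was found in either of the windows of PSMB8. A match is a description of letters and not a measured binding site.

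Total counts were 24037007 to 37990707 per library, which puts the 3 counts that a count of 0 allows at 0.079 to 0.125 CPM, which are counts scaled to a common library size. This limit covers counting error only. Levels below are CPM scaled by TMM, which sets libraries to a common scale from the bulk of their genes. In OVCAR-3 at 72 h the TMM factors were 0.774, 0.764 and 0.958 with GSK-J4 and 1.06, 1.10 and 1.12 with GSK-J5, and the 10 most abundant genes took 9.15%, 9.46% and 6.86% of counts with GSK-J4 and 5.35%, 5.09% and 5.91% with GSK-J5. The scaling therefore weighs on this group more than on the others, and values on library totals alone are given where it matters. Of 9 ovarian epithelial markers, 8 or 9 reached 10 counts in every group, with summed levels of 5990 to 9820 CPM in OVCAR-3, 5870 to 6650 CPM in CAOV3 and 1080 to 1630 CPM in SKOV3. The 8 leukocyte markers summed to 2.36 to 9.57 CPM in OVCAR-3, 110 to 191 CPM in CAOV3 and 6.90 to 11.0 CPM in SKOV3. In CAOV3 that sum was nearly all CD14 (51.4 to 111 CPM) and ITGB2 (34.7 to 77.4 CPM), with PTPRC, CD3E, CD2 and MS4A1 at 0 in all its libraries.

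On GRCh38 (GENCODE 29), B2M lies on chromosome 15 at 44711487 to 44718877 and the other genes on chromosome 6: HLA-E at 30489467 to 30494205, HLA-C at 31268749 to 31272130, HLA-B at 31269491 to 31357188, TAP2 at 32821833 to 32838780, PSMB8 at 32840717 to 32844703, PSMB9 at 32844136 to 32859585, TAP1 at 32845209 to 32853978 and TAPBP at 33299694 to 33314387. TAP2 was listed at exactly 0 in all 16 OVCAR-3 and CAOV3 libraries and at 24 to 112 counts in the 6 of SKOV3. It lies in a stretch of the tables with many such entries: between 28.5 and 33.6 Mb of chromosome 6, 54 of 182 protein-coding genes (29.7%) were 0 in all 22 libraries, against 10.8% of the 19916 protein-coding genes overall. Among these zeros were GTF2H4, ABHD16A and RPP21, genes in broad use, named here after their values were seen. Whether a 0 of TAP2 reflects the cells or the counting was not tested. HLA-B and HLA-C are near-identical paralogs of the same locus family, and TAP1, PSMB8 and PSMB9 have exon bases in common with neighbours on the opposite strand. TAP2 shares 32.3% of its exon bases with AL669918.1 on the same strand, a gene with 0 counts over the 22 libraries. PSMB9 shares 5.7% with PSMB8-AS1 on its own strand, also at 0. The counts of all these genes are uncertain where reads fit more than 1 gene.

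**Figure D1:**
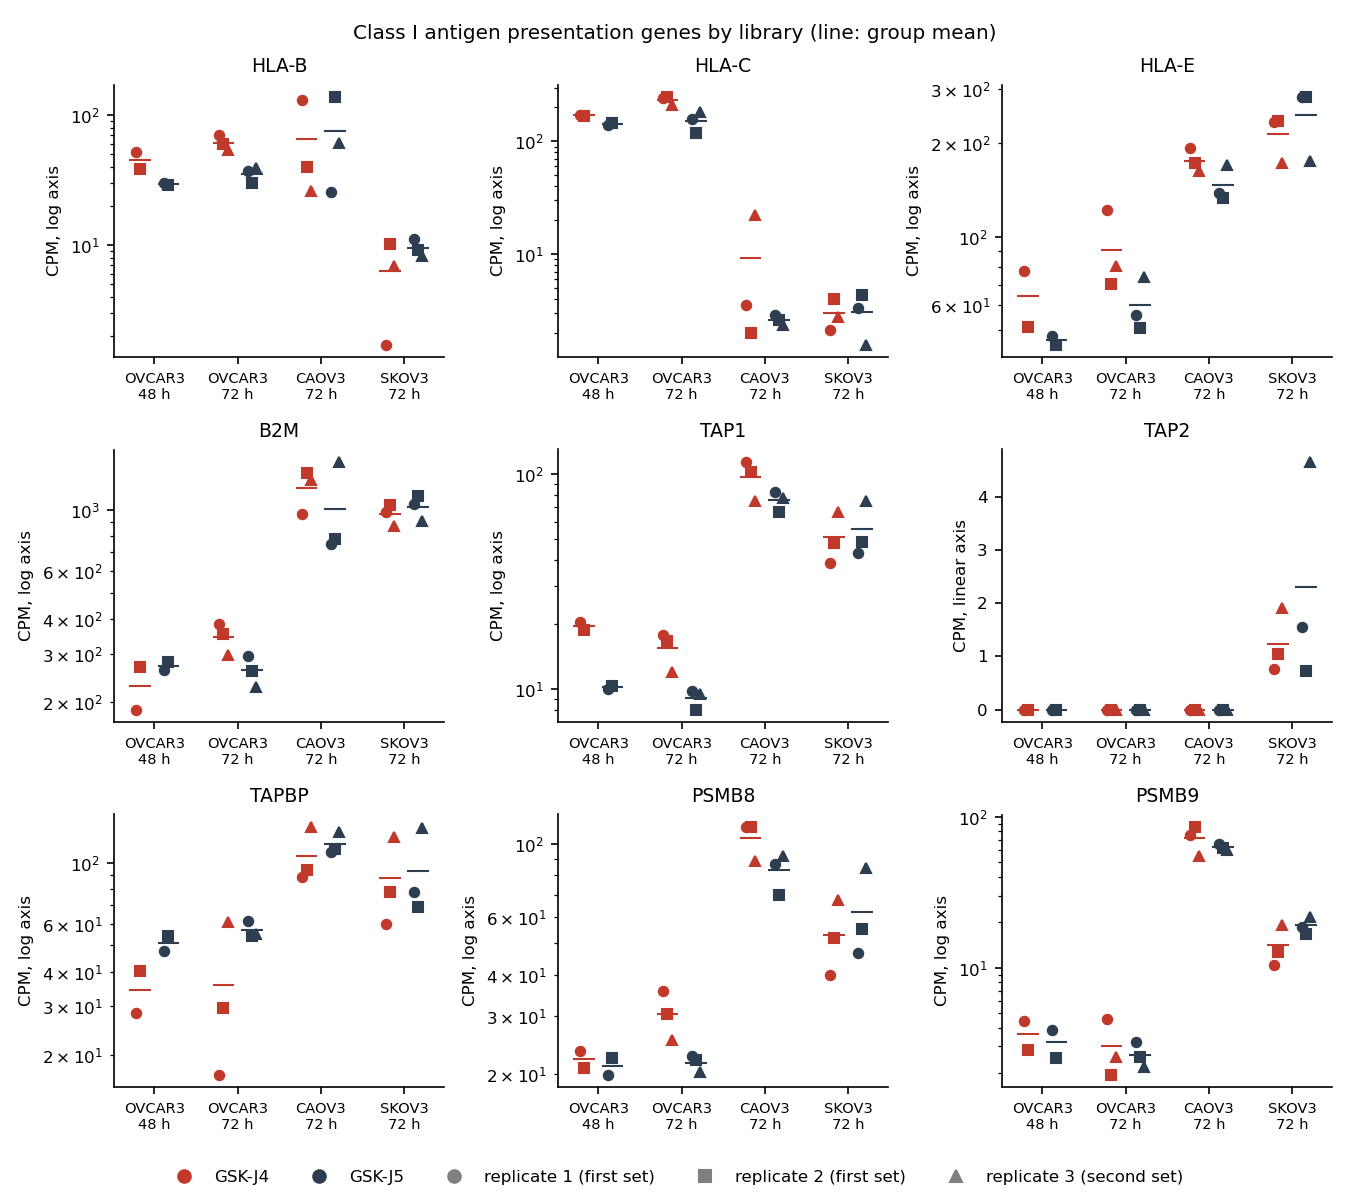
Level of each of the 9 genes in every library, as TMM-scaled CPM (log axis, linear for TAP2), by line and time, with GSK-J4 left of GSK-J5. Points are libraries, marker shapes are replicates 1 to 3, and short lines are group means. HLA-C is highest in OVCAR-3, while B2M, TAP1, PSMB8 and PSMB9 are lowest there, and libraries of 1 group lie far apart for HLA-B in CAOV3, HLA-B in SKOV3 with GSK-J4, HLA-C in CAOV3 with GSK-J4 and TAPBP in OVCAR-3 with GSK-J4.

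More members passed the test between lines than between compounds. With GSK-J5 at 72 h, OVCAR-3 held less of the peptide supply and loading genes and of B2M than either other line, and far more HLA-C. Against CAOV3, 6 genes were lower in OVCAR-3 (PSMB9, TAP1, PSMB8, B2M, HLA-E and TAPBP) and 1 was higher (HLA-C). Against SKOV3, the same 6 genes and TAP2 were lower in OVCAR-3, and HLA-C and HLA-B were higher. Between the other lines, HLA-B, PSMB9, TAP1 and PSMB8 were higher in CAOV3 than in SKOV3, and HLA-E and TAP2 lower. Over all 19079 genes tested, 54.5% differed between OVCAR-3 and CAOV3, 57.5% between OVCAR-3 and SKOV3 and 59.8% between CAOV3 and SKOV3, so a difference between lines was the common case. In bulk RNA, fewer cells with a transcript and less of it per cell cannot be told apart. The calls come from edgeR's quasi-likelihood test with Benjamini-Hochberg adjustment over all genes.

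The immunoproteasome subunit PSMB9 had 3.23, 2.54 and 2.18 CPM with GSK-J5 in OVCAR-3, 65.8, 62.1 and 60.3 CPM in CAOV3 and 18.7, 16.6 and 21.8 CPM in SKOV3. The lines did not overlap and stood in the order CAOV3, SKOV3, OVCAR-3. The log2 difference was -4.56 (SE 0.196, adjusted p = 9.84e-08) for OVCAR-3 minus CAOV3, -2.83 (SE 0.186, adjusted p = 9.23e-07) for OVCAR-3 minus SKOV3 and 1.73 (SE 0.17, adjusted p = 1.35e-05) for CAOV3 minus SKOV3. PSMB8, its partner subunit, averaged 21.7, 82.8 and 62.0 CPM in OVCAR-3, CAOV3 and SKOV3. It was lower in OVCAR-3 than in CAOV3 (log2 -1.92, SE 0.182) and than in SKOV3 (log2 -1.46, SE 0.18), with adjusted p = 1.34e-05 and 6.92e-05. The 0.45 by which it was higher in CAOV3 than in SKOV3 (SE 0.175, adjusted p = 0.0463) was no longer called with any of 7 of the 9 libraries left out.

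On the TPM scale, which corrects for gene length, PSMB9 reached 0.0154 to 0.0213 of the level of PSMB6, the constitutive subunit it replaces, in OVCAR-3 with GSK-J5. The same ratio was 0.237 to 0.269 in CAOV3 and 0.144 to 0.193 in SKOV3. PSMB8 reached 0.147 to 0.157 of PSMB5 in OVCAR-3, 0.256 to 0.42 in CAOV3 and 0.299 to 0.639 in SKOV3. By TPM on all exon bases, PSMB9 was at 0.105 to 0.139 of PSMB8 in OVCAR-3, 0.641 to 0.867 in CAOV3 and 0.252 to 0.39 in SKOV3 with GSK-J5. With the mean transcript length instead, PSMB9 was above PSMB8 in CAOV3 replicate 2, at 81.0 and 75.4.

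**Figure D2:**
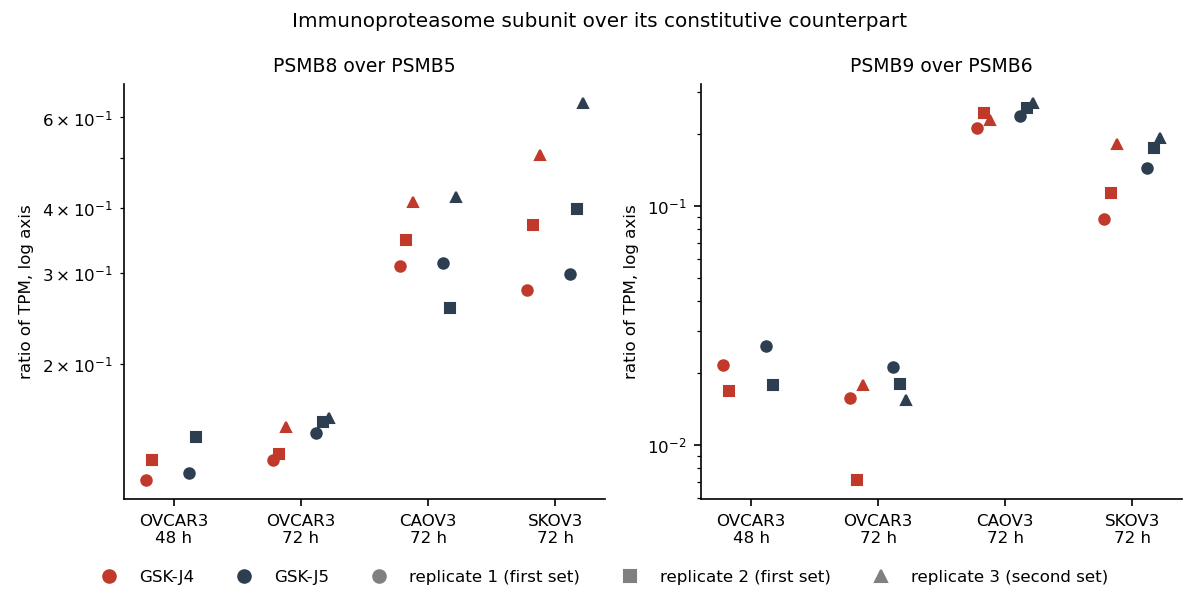
Ratio of TPM of PSMB8 over PSMB5 and of PSMB9 over PSMB6 (log axes) in every library, by line and time, GSK-J4 left of GSK-J5, marker shapes for replicates. OVCAR-3 lies lowest for both pairs, and its lowest PSMB9 ratio, 0.00713, is a GSK-J4 library at 72 h.

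TAP1, the transporter subunit with counts in every line, had 9.80, 8.04 and 9.47 CPM in OVCAR-3, 82.6, 66.4 and 77.2 CPM in CAOV3 and 42.9, 48.1 and 75.0 CPM in SKOV3 with GSK-J5. OVCAR-3 lay below both other lines without overlap, while CAOV3 and SKOV3 overlapped. The difference was -3.05 log2 (SE 0.188) from CAOV3 and -2.56 (SE 0.186) from SKOV3, with adjusted p = 8.26e-07 and 1.80e-06. CAOV3 was 0.49 higher than SKOV3 (SE 0.173, adjusted p = 0.0321), a call lost when any of CAOV3 replicate 1 or 2, SKOV3 replicate 1 or 2 or OVCAR-3 replicate 2 was left out. TAP2 held 47, 24 and 112 counts in SKOV3 with GSK-J5. Against 3 counts over a group, its SKOV3 level was at least 56.1-fold above OVCAR-3 and at least 63.1-fold above CAOV3, with the doubt about the zeros given above.

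TAPBP, which bridges the transporter and the heavy chain, differed least of the loading genes. It averaged 56.8 ± 3.89, 117 ± 10.6 and 93.6 ± 34.8 CPM in OVCAR-3, CAOV3 and SKOV3 (SD, n = 3 each). It was lower in OVCAR-3 than in CAOV3 (log2 -1.02, SE 0.176, adjusted p = 0.000724) and lower than in SKOV3 (log2 -0.65, SE 0.176, adjusted p = 0.0094). The call against SKOV3 was lost without OVCAR-3 GSK-J5 replicate 3 (log2 -0.453, adjusted p = 0.0582).

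B2M had 296, 260 and 228 CPM in OVCAR-3, 752, 782 and 1490 CPM in CAOV3 and 1050, 1120 and 908 CPM in SKOV3 with GSK-J5. OVCAR-3 lay at 0.266 of CAOV3 (log2 -1.91, SE 0.24, adjusted p = 9.05e-05) and 0.257 of SKOV3 (log2 -1.96, SE 0.238, adjusted p = 6.24e-05). The high CAOV3 library was that of the second set, and without it B2M was lower in CAOV3 than in SKOV3 (log2 -0.50, adjusted p = 0.00377), which the 3 libraries together did not call (log2 -0.05, adjusted p = 0.867).

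HLA-E had 55.7, 50.5 and 74.2 CPM in OVCAR-3, 138, 134 and 170 CPM in CAOV3 and 282, 283 and 176 CPM in SKOV3. The lines followed each other upward in that order, each step called: -1.29 log2 (SE 0.214) for OVCAR-3 minus CAOV3 and -0.75 (SE 0.212, adjusted p = 0.0117) for CAOV3 minus SKOV3. The second step was no longer called without CAOV3 replicate 2 (adjusted p = 0.0561).

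HLA-C ran the other way. It had 157, 119 and 184 CPM in OVCAR-3, 2.89, 2.62 and 2.35 CPM in CAOV3 and 3.32, 4.35 and 1.58 CPM in SKOV3 with GSK-J5. OVCAR-3 was 59.3-fold above CAOV3 (log2 5.89, SE 0.336, adjusted p = 5.39e-07) and 50.8-fold above SKOV3 (log2 5.67, SE 0.333, adjusted p = 4.74e-07). CAOV3 and SKOV3 were not told apart with all libraries (log2 -0.22, 95% interval -0.93 to 0.48), but without SKOV3 GSK-J5 replicate 3 HLA-C was lower in CAOV3 (log2 -0.626, adjusted p = 0.0339).

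HLA-B spread most in CAOV3. With GSK-J5 it had 36.8, 29.8 and 39.0 CPM in OVCAR-3, 25.5, 138 and 61.1 CPM in CAOV3 and 11.1, 9.12 and 8.23 CPM in SKOV3. It was higher in OVCAR-3 than in SKOV3 (log2 1.92, SE 0.513, adjusted p = 0.0107) and in CAOV3 than in SKOV3 (log2 2.99, SE 0.528, adjusted p = 0.00104), while OVCAR-3 and CAOV3 overlapped (log2 -1.07, 95% interval -2.19 to 0.04). The call of OVCAR-3 against SKOV3 was lost with SKOV3 replicate 3 left out (adjusted p = 0.0546), in the first set alone (adjusted p = 0.158) and without the low-count filter (adjusted p = 0.0709). HLA-B made up 17.5% to 20.0% of the HLA-B and HLA-C counts together in OVCAR-3, 89.8% to 98.1% in CAOV3 and 67.7% to 83.9% in SKOV3, so the lines also differed in which of the paralogs took the reads. In CAOV3 the sum of both genes still ran from 28.4 to 140 CPM.

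**Figure D3:**
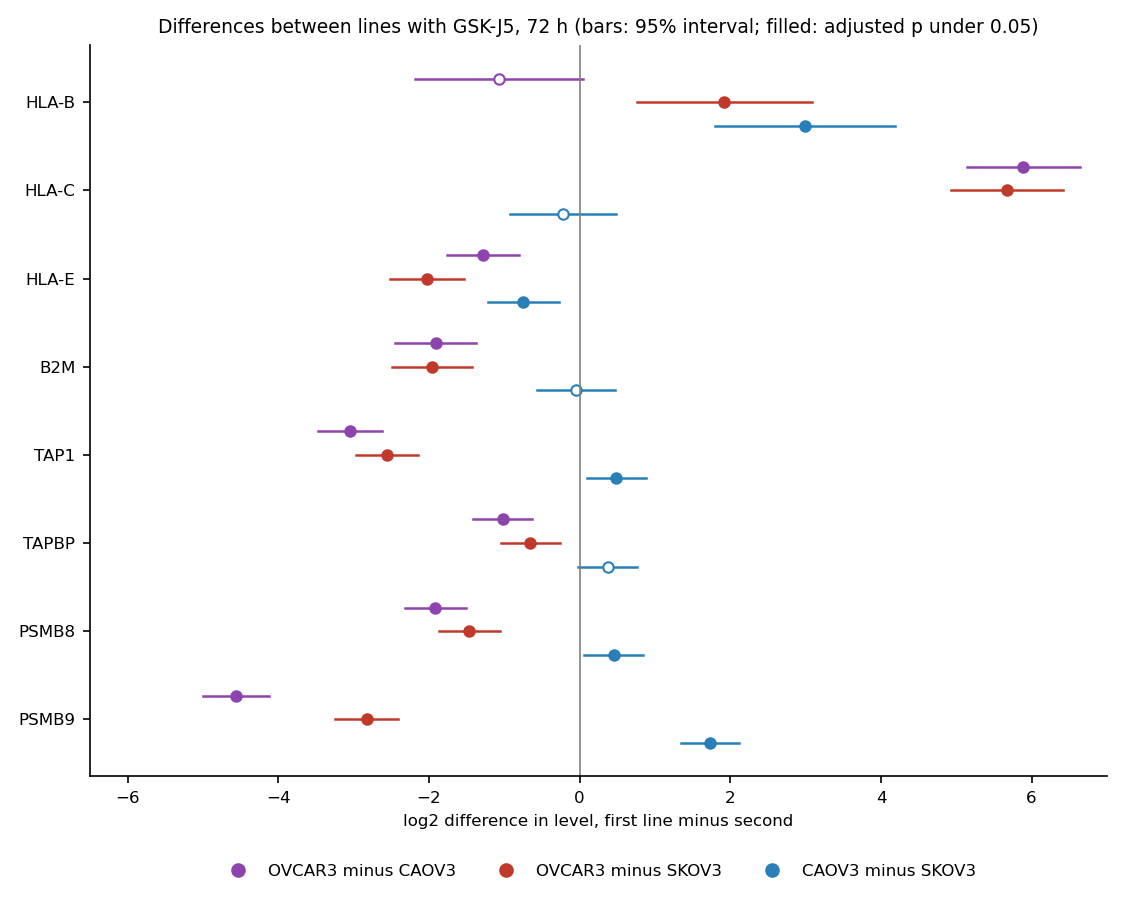
Log2 difference in level between lines with GSK-J5 at 72 h, first line minus second, with 95% intervals; filled points have an adjusted p under 0.05. HLA-C lies above 5 for both differences of OVCAR-3, and PSMB9, TAP1, PSMB8, B2M, HLA-E and TAPBP lie below 0 for both. TAP2 is left out because OVCAR-3 and CAOV3 hold no count.

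Compared per length, HLA-C and B2M stood at 261 ± 57.3 and 183 ± 19.8 TPM in OVCAR-3 with GSK-J5 (SD, n = 3), so the heavy chain was above its light chain. In CAOV3 and SKOV3 B2M was at 621 ± 265 and 687 ± 84.2 TPM and HLA-C at 3.90 ± 0.331 and 5.03 ± 2.34 TPM. The order in OVCAR-3 depends on the length used: with the mean transcript length in place of all exon bases, HLA-C was at 189 and B2M at 387.

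Of the 13 transcription factors of class I genes that were listed, 8 were lower and 0 higher in OVCAR-3 than in CAOV3. Against SKOV3, 9 were lower and 1 higher. Of all genes, 27.6% were lower and 26.9% higher in OVCAR-3 than in CAOV3, and 28% lower and 29.4% higher than in SKOV3. NLRC5, the transactivator that drives class I promoters, had 1.29, 1.58 and 1.83 CPM in OVCAR-3, 33.4, 32.9 and 44.6 CPM in CAOV3 and 35.2, 26.7 and 26.4 CPM in SKOV3. OVCAR-3 was lower than CAOV3 (log2 -4.54, SE 0.225, adjusted p = 2.10e-07) and than SKOV3 (log2 -4.22, SE 0.223, adjusted p = 2.15e-07). IRF1, an interferon-induced activator of these genes, was also lower in OVCAR-3 (log2 -1.93 from CAOV3 and -1.25 from SKOV3). Both had the direction of TAP1 and PSMB9, not that of HLA-C.

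Among 11 other components of the class I pathway, 10 were tested: 8 were lower and 0 higher in OVCAR-3 than in CAOV3, and 4 were lower and 6 higher than in SKOV3. HLA-F, a heavy chain of limited polymorphism, had at most 0.102 CPM in OVCAR-3, against 24.4 to 36.6 CPM in CAOV3 and 21.4 to 36.5 CPM in SKOV3 with GSK-J5. ERAP2, which trims peptides in the endoplasmic reticulum, was instead high in SKOV3 alone, at 95.7 to 132 CPM, against 0.622 to 3.92 CPM in OVCAR-3 and 2.74 to 5.90 CPM in CAOV3. Of 14 interferon-stimulated genes, 13 were tested. Of these, 10 were lower in OVCAR-3 than in CAOV3, whereas 7 were higher and 2 lower in OVCAR-3 than in SKOV3. All 13 were higher in CAOV3 than in SKOV3. Beside both lists, 54.5% of all genes differed between OVCAR-3 and CAOV3 and 57.5% between OVCAR-3 and SKOV3. Of all genes, 30.4% were higher and 29.4% lower in CAOV3 than in SKOV3. MX1, an antiviral GTPase, had 9.45 to 33.2 CPM in OVCAR-3, 51.9 to 76.5 CPM in CAOV3 and 3.37 to 3.74 CPM in SKOV3.

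The second question is what GSK-J4 did to these genes. At 72 h, 0 of 8 genes were called in OVCAR-3, 0 of 8 in CAOV3 and 0 of 9 in SKOV3, with 0.0298%, 0.315% and 0.0412% of all genes called. At an unadjusted p under 0.05 the counts were 4, 3 and 2. Among all genes they were 7244 of 16802, 2801 of 17137 and 594 of 16981. DESeq2 called 2, 0 and 0, with 37.6%, 3.54% and 0.0942% of all genes called. The median log2 fold change over the tested members was 0.53 in OVCAR-3, 0.30 in CAOV3 and -0.18 in SKOV3, beside -0.08, -0.01 and 0 over all genes.

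In OVCAR-3 at 72 h, HLA-B had 70.2, 59.6 and 54.0 CPM with GSK-J4, against 36.8, 29.8 and 39.0 CPM with GSK-J5. The groups did not overlap, and the log2 fold change was 0.79 (SE 0.21, adjusted p = 0.07). TAP1 had 17.8, 16.7 and 12.0 CPM with GSK-J4, against 9.80, 8.04 and 9.47 CPM with GSK-J5 (log2 0.74, SE 0.246, adjusted p = 0.0818). HLA-C had 242, 248 and 209 CPM with GSK-J4, against 157, 119 and 184 CPM with GSK-J5 (log2 0.60, SE 0.229, adjusted p = 0.102). For both, every GSK-J4 library was above every GSK-J5 library, and the second set showed the smallest gap. PSMB8 (log2 0.47, SE 0.178) and B2M (log2 0.39, SE 0.16) had the same sign without overlap, and HLA-E (log2 0.60, SE 0.297) and PSMB9 (log2 0.18, SE 0.403) had it with overlapping groups.

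TAPBP had the opposite sign. It had 16.9, 29.7 and 60.9 CPM with GSK-J4, against 61.3, 54.0 and 55.2 CPM with GSK-J5 in OVCAR-3 at 72 h (log2 -0.84, SE 0.352, adjusted p = 0.122). The low values were those of the first set, and the GSK-J4 library of the second set was level with the GSK-J5 libraries. At 48 h TAPBP was again lower in both GSK-J4 libraries, with 28.4 and 40.3 CPM, against 47.6 and 53.9 CPM with GSK-J5 (log2 -0.54, SE 0.375, adjusted p = 0.297). By TPM, TAPBP was 0.902 to 4.82 times TAP1 with GSK-J4 at 72 h and 5.54 to 6.39 times with GSK-J5, and at 48 h it was 1.32 to 2.04 times with GSK-J4 and 4.51 to 4.94 times with GSK-J5. That ratio within a library does not depend on the scaling, and its groups did not overlap at either time.

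The signs at 72 h rest in part on the scaling. On library totals alone, chosen after the data had been seen, the median of all genes in OVCAR-3 moved to -0.47 log2, and B2M had 0.00, PSMB8 0.08, HLA-C 0.22, HLA-E 0.21, TAP1 0.35 and HLA-B 0.40, while PSMB9 turned to -0.21 and TAPBP was at -1.24. On that scale B2M had 270 to 298 CPM with GSK-J4, against 255 to 317 CPM with GSK-J5. The share of all counts that B2M took thus overlapped between the compounds.

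**Figure D4:**
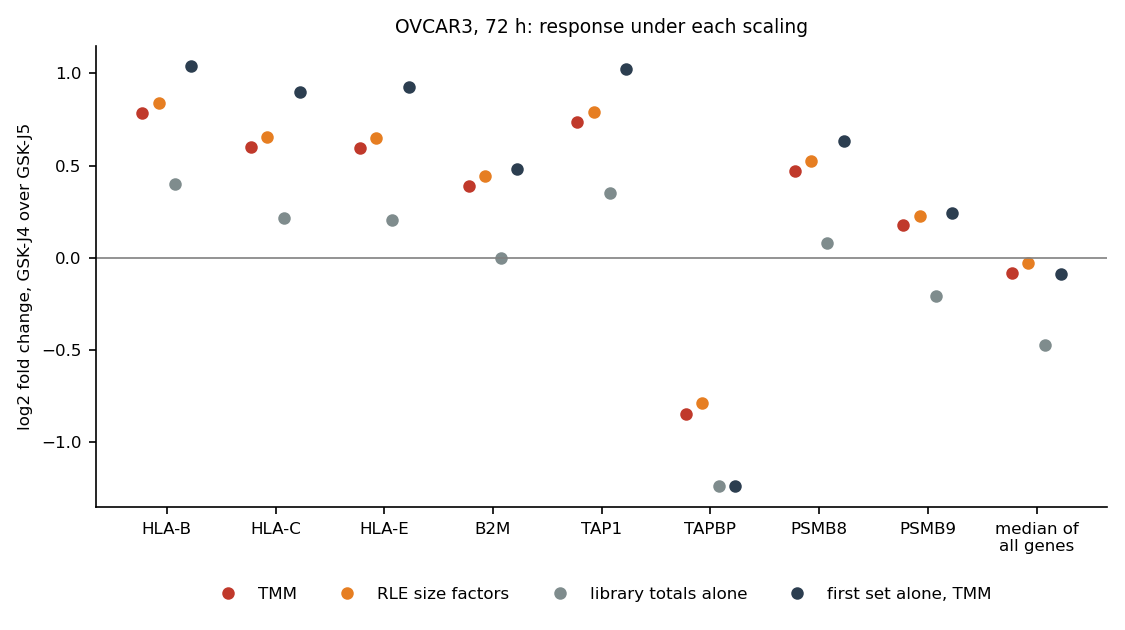
Log2 fold change of GSK-J4 over GSK-J5 in OVCAR-3 at 72 h for 8 genes and the median of all genes, under TMM, RLE size factors, library totals alone and the first library set alone. A change of scale moves all genes alike, and on library totals B2M lies at 0.00 and PSMB9 below 0, and the first set alone gives the values farthest from 0 for HLA-B, HLA-C, HLA-E, TAP1 and PSMB8.

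Within the first set alone, with 2 libraries per compound, 7 of 8 genes were called in OVCAR-3 at 72 h (6 higher with GSK-J4 and TAPBP lower), but 71.7% of all genes tested were called as well. HLA-B was at 1.04 log2, TAP1 at 1.02, HLA-E at 0.92, HLA-C at 0.90 and TAPBP at -1.24. Fitting the same contrast with all 10 OVCAR-3 libraries called HLA-B, HLA-C, TAP1 and PSMB8 higher, with 43.8% of all genes called, and fitting it with the 18 libraries of 72 h called HLA-E, TAP1 and PSMB8 higher and TAPBP lower, with 37.7% called. The share of members called was thus read against a background in which a large part of the genes changed. The second set has 1 library per compound, which gives no test of its own.

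In CAOV3 at 72 h, TAP1 had 114, 102 and 74.4 CPM with GSK-J4, against 82.6, 66.4 and 77.2 CPM with GSK-J5 (log2 0.35, SE 0.114, adjusted p = 0.134). PSMB8 had 112, 112 and 88.3 CPM with GSK-J4, against 86.9, 69.8 and 91.8 CPM with GSK-J5 (log2 0.33, SE 0.111, adjusted p = 0.136). Both were higher with GSK-J4 in the first set and level in the second. Within the first set alone HLA-E, TAP1, PSMB8 and PSMB9 were called higher, by 0.41, 0.51, 0.50 and 0.31 log2, and TAPBP lower, at -0.30, with 14.1% of all genes called. HLA-B (log2 -0.36, 95% interval -3.41 to 2.69) and HLA-C (log2 1.05, 95% interval -1.03 to 3.12) could not be placed in CAOV3. HLA-B had 130, 39.8 and 25.9 CPM with GSK-J4, against 25.5, 138 and 61.1 CPM with GSK-J5, and HLA-C stood at 22.1 CPM in the second GSK-J4 set, against at most 3.52 CPM in the other CAOV3 libraries.

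In SKOV3 at 72 h, 8 of 9 genes had a log2 fold change below 0, none of them called. PSMB9 had 10.4, 12.7 and 19.0 CPM with GSK-J4, against 18.7, 16.6 and 21.8 CPM with GSK-J5 (log2 -0.47, SE 0.141, adjusted p = 0.831). HLA-E had 234, 237 and 173 CPM with GSK-J4, against 282, 283 and 176 CPM with GSK-J5 (log2 -0.18, 95% interval -0.32 to -0.05, adjusted p = 0.999). For both genes the groups overlapped through the second set. Same-numbered libraries of SKOV3 deviated together, but the number follows the library set, so this does not show that they were pairs. Between same-numbered libraries PSMB9, HLA-E, B2M, TAP1 and PSMB8 were lower with GSK-J4 in 3 of 3. How many of all genes were so was not counted. With the replicate number as a block 0 of 9 genes were called (PSMB9 adjusted p = 0.281, HLA-E adjusted p = 0.402). B2M (log2 -0.09, 95% interval -0.21 to 0.03) and TAP1 (log2 -0.11, 95% interval -0.31 to 0.09) had narrow intervals around small values. In the first set alone 0 of 9 genes were called in SKOV3, with 0.0908% of all genes called.

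**Figure D5:**
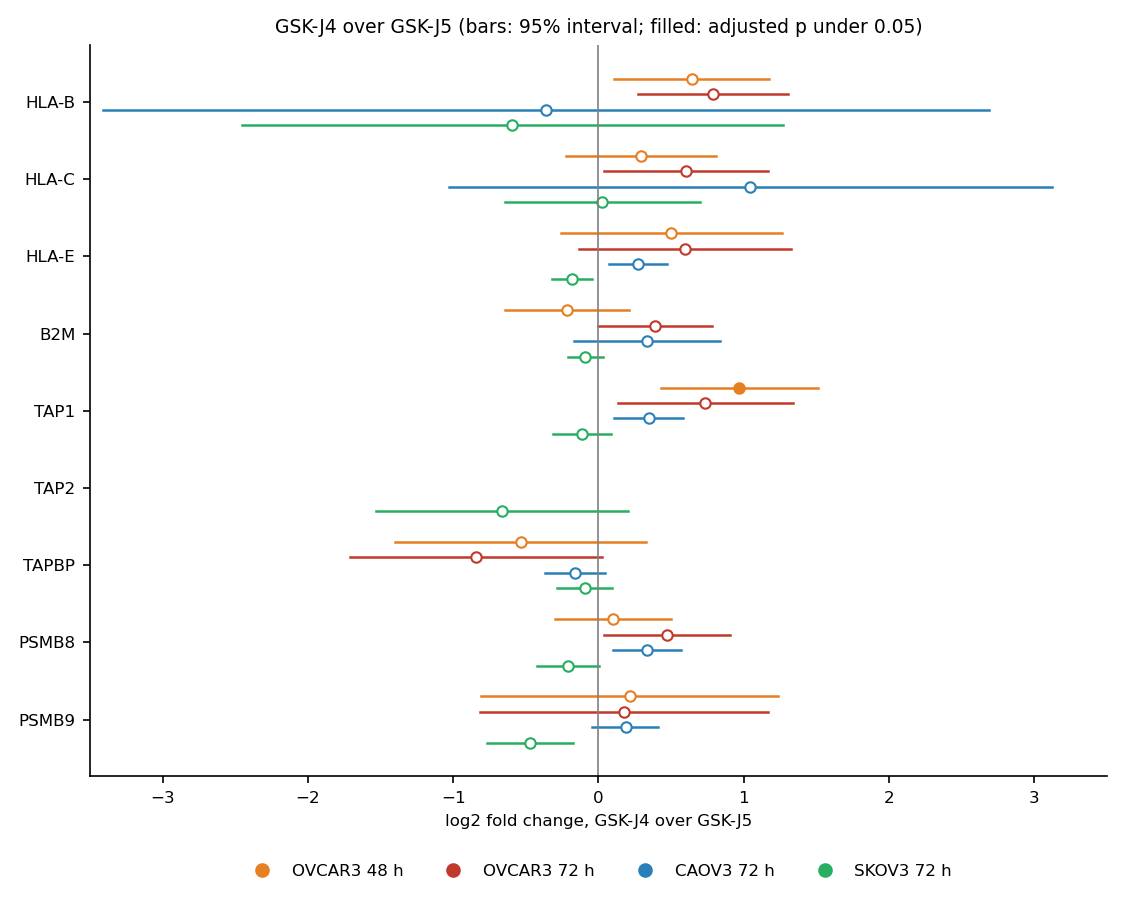
Log2 fold change of GSK-J4 over GSK-J5 with 95% intervals for the 9 genes in OVCAR-3 at 48 h and 72 h, CAOV3 at 72 h and SKOV3 at 72 h; filled points have an adjusted p under 0.05. TAP1 in OVCAR-3 at 48 h, at 0.97, is the only filled point, and the intervals of HLA-B and HLA-C in CAOV3 span several log2 units.

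At 48 h in OVCAR-3, TAP1 was the 1 gene of 8 that passed, where 18.9% of all genes were called. It rose to 20.4 and 18.8 CPM with GSK-J4, against 10.1 and 10.4 CPM with GSK-J5, a 1.96-fold difference (log2 0.97, SE 0.235, adjusted p = 0.0335, n = 2 each, edgeR). On library totals alone the log2 fold change was 0.76 and was still called (adjusted p = 0.0449). The call was lost without the library set term (adjusted p = 0.0624, 4.66% of all genes called) and with the replicate number as a block (adjusted p = 0.149, 0% called). It was also lost without the first GSK-J5 library of 72 h (adjusted p = 0.0551, 8.33% called). Leaving out any one of the 48 h libraries, which leaves 1 library in a group, ended the call too, with log2 values of 0.894 to 1.044. DESeq2 called 1 of the 8 genes at 48 h, with 33.6% of all genes called. By TPM, TAP1 was 0.54 to 0.56 times PSMB8 with GSK-J4 and 0.289 to 0.315 times with GSK-J5, so that ratio to its neighbour on chromosome 6 was higher in both GSK-J4 libraries. HLA-B had 51.5 and 38.3 CPM with GSK-J4, against 29.9 and 28.9 CPM with GSK-J5 (log2 0.64, SE 0.232, adjusted p = 0.0794), and HLA-C had 173 and 169 CPM with GSK-J4, against 139 and 146 CPM with GSK-J5 (log2 0.29, SE 0.224, adjusted p = 0.337). B2M had 188 and 268 CPM with GSK-J4, against 262 and 280 CPM with GSK-J5, overlapping groups (log2 -0.22, SE 0.187, adjusted p = 0.389), and the fold change of PSMB8 was near 0 (log2 0.10, SE 0.174).

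Between 72 h and 48 h the difference of the effects was called for 0 of 8 genes, with 0.00575% of all genes called. DESeq2 called 0, with 1.36% of all genes called. At an unadjusted p under 0.05 there was 1 gene, beside 1279 of all 17402 tested. That gene was B2M, whose effect was 0.64 log2 higher at 72 h (SE 0.241, adjusted p = 0.629). For TAP1 the difference was -0.21 (95% interval -0.90 to 0.49). In the first set alone the effect was called higher at 72 h for HLA-C (0.603 log2, adjusted p = 0.0172), B2M (0.695, adjusted p = 0.0301) and PSMB8 (0.529, adjusted p = 0.0372), with 27% of all genes called.

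The responses of the lines were compared in a fit of the 18 libraries of 72 h. The effect of GSK-J4 was higher in OVCAR-3 than in SKOV3 for TAP1 (0.86 log2, SE 0.238, adjusted p = 0.0227), HLA-E (0.79, SE 0.265, adjusted p = 0.0478) and PSMB8 (0.69, SE 0.214, adjusted p = 0.0345), 3 of the 8 genes with counts in both lines, where 20.8% of all genes were called. All 3 calls ended on library totals alone, where the values were 0.46, 0.38 and 0.29 and the median of all genes -0.46. The call of HLA-E also ended with RLE size factors (adjusted p = 0.0581). All 3 ended with the replicate number as a block (adjusted p = 0.0563, 0.0876 and 0.0696) and without the library set term, with 6.39% and 4.14% of all genes called. Leaving out any one of OVCAR-3 GSK-J4 replicate 1, OVCAR-3 GSK-J5 replicates 1 and 2, SKOV3 GSK-J4 replicates 1 and 3 and SKOV3 GSK-J5 replicates 2 and 3 left 0 calls. The share of all genes called was also smaller in those fits, at 7.91% to 12.6%. Without OVCAR-3 GSK-J4 replicate 1 the value of HLA-E was 0.46.

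Between OVCAR-3 and CAOV3 the effects were called different for 0 of 8 genes, with 19.3% of all genes called. The count was also 0 at an unadjusted p under 0.05, beside 6811 of 20252 genes, and 0 with DESeq2, with 27.1% called. Between CAOV3 and SKOV3 the count was 0 of 8 as well, with 0% of all genes called. It was 1 (PSMB8) at an unadjusted p under 0.05, beside 1077 of 20252 genes, and 0 with DESeq2, with 0.0346% called. For TAP1 these differences were 0.41 (95% interval -0.10 to 0.92) and 0.45 (95% interval -0.04 to 0.95). In all genes together the split of calls moved with the scaling: of the genes whose effect differed between OVCAR-3 and SKOV3, 2637 were higher and 1584 lower under TMM, and 1186 and 3473 on library totals.

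The regulators and targets listed beside the members were mostly not called at 72 h: in each of OVCAR-3, CAOV3 and SKOV3, 0 members of any list passed. NLRC5 had 0.848, 1.18 and 1.29 CPM with GSK-J4 in OVCAR-3, against 1.29, 1.58 and 1.83 CPM with GSK-J5 (log2 -0.52, SE 0.372, adjusted p = 0.308), so it had the opposite sign to TAP1 and HLA-B. IRF1 was at -0.13 log2 (SE 0.18). PSMB10, the third immunoproteasome subunit, had 17.8, 13.2 and 11.8 CPM with GSK-J4, against 7.22, 6.32 and 8.40 CPM with GSK-J5 in OVCAR-3 (log2 0.945, SE 0.28, adjusted p = 0.0722), and the difference of its effect from that in SKOV3 was called (1.19 log2, SE 0.346, adjusted p = 0.0277). In that comparison 3 of its list's 10 tested genes and 20.8% of all genes were called. The alternative settings followed the members only, so whether the call of PSMB10 holds under them was not tested.

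Some genes of these lists were called in OVCAR-3 at 48 h, where 18.9% of all genes were called. None of those calls held with any one of the 48 h libraries left out or with the replicate number as a block, since 0 of all genes were called in each of those fits. RFX5, a subunit of the factor that binds the X box of these promoters, fell to 22.5 and 19.6 CPM with GSK-J4, against 41.0 and 41.5 CPM with GSK-J5 (log2 -0.94, SE 0.268, adjusted p = 0.0461). NFYC, a subunit of the CCAAT-binding factor, rose to 104 and 104 CPM with GSK-J4, against 49.8 and 54.3 CPM with GSK-J5 (log2 1.03, SE 0.299, adjusted p = 0.0482). The other 11 of 13 factors were not called, so the share called was near that of all genes. Of 12 interferon-stimulated genes tested, 3 fell, 0 rose and 9 were not called, with a list median of -1.16 log2. GBP1, an interferon-induced GTPase, fell to 6.09 and 6.08 CPM with GSK-J4, against 18.2 and 18.4 CPM with GSK-J5 (log2 -1.56, SE 0.402, adjusted p = 0.0376), and IFIT3, an antiviral effector, fell to 3.19 and 2.95 CPM with GSK-J4, against 8.36 and 8.86 CPM with GSK-J5 (log2 -1.46, SE 0.363, adjusted p = 0.0352). TAP1 and these genes therefore moved in opposite directions in the same libraries.

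Among 7 tested class I-like molecules and ligands of natural killer receptors, 2 rose at 48 h and 0 fell. Of all genes at 48 h, 11.3% were called higher and 7.63% lower. Neither of the 2 calls held with any one of the 48 h libraries left out or with the replicate number as a block. ULBP1, a ligand of the activating receptor NKG2D, rose to 11.4 and 15.6 CPM with GSK-J4, against 1.07 and 0.954 CPM with GSK-J5 (log2 3.76, SE 0.685, adjusted p = 0.0199), and ULBP2, a related ligand, rose to 5.53 and 5.01 CPM with GSK-J4, against 2.99 and 1.97 CPM with GSK-J5 (log2 1.11, SE 0.307, adjusted p = 0.0424). At 72 h ULBP1 had 9.17, 12.4 and 3.55 CPM with GSK-J4, against 1.60, 2.47 and 3.90 CPM with GSK-J5, with the second set level. Of 9 tested ovarian epithelial markers, 1 rose and 3 fell at 48 h, and their summed level was 5990 to 6140 CPM with GSK-J4 and 9270 to 9450 CPM with GSK-J5. Its part in the values above was not tested.

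As a description over the 22 libraries, TAP1, PSMB8 and PSMB9 varied together (Pearson's r of log2 CPM 0.95 to 0.97), B2M varied with them (r 0.87 to 0.90), and HLA-C against them (r -0.86 to -0.89). These values are set mainly by the lines. With the mean of each line and library set subtracted, HLA-E varied with PSMB8 (r 0.79) and TAP1 (r 0.66), and TAPBP against HLA-E (r -0.87), TAP1 (r -0.70) and PSMB8 (r -0.60). A mean pattern was taken over all 9 members, TAP2 with its zeros and HLA-C among them, so it was not shared by all. The 12349 other genes were ranked by likeness to it. Over the 22 libraries the closest 6 were CYBRD1, TSPO, PRCP, ECHDC3, TIMP1 and FAH (r 0.969 to 0.978). After the means of line and set were taken off they were NUDT14, CNN3-DT, BABAM1, HTRA2, TEX264 and PRCP (r 0.843 to 0.888). Libraries of a line share their cells, and depth and scaling are common to all genes of a library.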

How the data were processed

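The deposited values are raw counts per gene, whole numbers without normalization, for 58825 Ensembl identifiers in 3 tables. STAR, DESeq2 and GRCh38 (hg38) appear in the submitters' processing notes, with no role given. How reads were counted, by strand or not, and with which annotation is not stated in the material used. Exon lengths came from GENCODE release 29. The shortened header of one OVCAR-3 column matched only the GSK-J4 sample of replicate 3 at 72 h.

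Genes passing filterByExpr (minimum count 10) were tested with robust quasi-likelihood fits in edgeR 4.0.16 (R 4.3.3), with TMM scaling and the library set as a covariate. The effect at 72 h was fitted per line, the 48 h effect with all 10 OVCAR-3 libraries and differences between effects of lines with 18. Benjamini-Hochberg adjustment ran over all genes at 0.05. SE and 95% intervals were worked back from the F statistic and are approximate. The fits were run on simulated counts to check the direction of known changes. Those counts had a fixed or capped spread and no library set effect, so they give no error rates for these data. TPM used all exon bases of a gene. Same-numbered libraries deviated together in SKOV3 (r 0.744 to 0.921) and CAOV3 (r 0.104 to 0.472), where the number follows the set, and not in OVCAR-3 at 72 h (r -0.073 to 0.037). Replicates differed beyond sampling noise. Members, lists and tests were chosen with earlier results of these data known. From each list and comparison, at most 3 called genes with the largest change were to be named, and other list genes named here were picked after their values were seen. Alternatives were RLE size factors, DESeq2 1.42.0, no filter, no set term, a replicate block, other fits, left-out libraries and, added after seeing the data, library totals. One listed gene is not reported here by name.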

Additional observations from a re-analysis of the deposited data

Results flagged for a closer look

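The effect of GSK-J4 at 72 h differed between OVCAR-3 and SKOV3 by a test of the difference itself for TAP1 (0.861 log2 higher in OVCAR-3), HLA-E (0.787) and PSMB8 (0.693). With each of the 18 libraries left out in turn, TAP1 ran from 0.706 to 1.043, HLA-E from 0.46 to 1.007 and PSMB8 from 0.59 to 0.799, and 8, 15 and 8 of those removals ended the call. Over the same removals the share of all genes called ran from 7.91% to 39.5%, against 20.8% with all libraries. No group held more than 3 libraries, so single libraries far from the rest of their group were not looked for.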

How the results depend on the processing

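Counts of members called depended on the setting most for OVCAR-3. At 72 h, 4 genes were called with all 10 OVCAR-3 libraries fitted and 4 with all 18 libraries of 72 h. DESeq2 called 2 (HLA-B and TAP1), against 0 in the main fit. The shares of all genes called in these fits were 43.8%, 37.7% and 37.6%, against 0.0298%. Without the low-count filter 2 genes were called in CAOV3 at 72 h (TAP1 and PSMB8) and 2 in OVCAR-3 at 48 h. The same setting called 2 for the effect in OVCAR-3 minus CAOV3 and 6 for OVCAR-3 minus SKOV3. Of all genes it called 3.27%, 12.9%, 13.8% and 14.3%, in that order. Without the library set term 0 were called at 48 h and 0 for OVCAR-3 minus SKOV3, with 4.66% and 4.14% of all genes. With the replicate block 0 were called at 48 h (TAP1 adjusted p = 0.149) and 0 for OVCAR-3 minus SKOV3. The block called 0% and 6.39% of all genes there. The block also ended the call of PSMB8 between CAOV3 and SKOV3 with GSK-J5 (adjusted p = 0.0714). On library totals alone 0 were called for OVCAR-3 minus SKOV3, with 23% of all genes called. With single libraries or the second set left out, the count ran from 0 to 7 in OVCAR-3 at 72 h, 0 to 5 in CAOV3, 0 to 0 in SKOV3, 0 to 3 in OVCAR-3 at 48 h and 0 to 3 for 72 h minus 48 h. It ran from 0 to 2 for the effect in OVCAR-3 minus CAOV3, 0 to 6 for OVCAR-3 minus SKOV3 and 0 to 0 for CAOV3 minus SKOV3. For levels with GSK-J5 it ran from 7 to 8 for OVCAR-3 minus CAOV3, 8 to 9 for OVCAR-3 minus SKOV3 and 3 to 8 for CAOV3 minus SKOV3. Over these removals the share of all genes called also moved. It ran from 0% to 71.7% in OVCAR-3 at 72 h, 0% to 14.4% in CAOV3 and 0.0241% to 0.158% in SKOV3. At 48 h it ran from 0% to 59%, and for 72 h minus 48 h from 0% to 27%. For effects it was 7.87% to 41.5% (OVCAR-3 minus CAOV3), 7.91% to 42% (OVCAR-3 minus SKOV3) and 0% to 2.26% (CAOV3 minus SKOV3). For levels it was 45.7% to 62.2%, 48.8% to 64.7% and 54.3% to 67.2%, in the same order. The cause of these changes was not tested. Over all genes, DESeq2 called 6322 in OVCAR-3 at 72 h, against 5 with edgeR, and 607 in CAOV3, against 54, and the block called 0 at 48 h, against 3296. No called value changed sign. In OVCAR-3, library totals turned the sign of PSMB9 at 72 h and of PSMB8 (-0.113) and PSMB9 (-0.007) at 48 h. For the effect in OVCAR-3 minus CAOV3 they turned HLA-E (-0.03), B2M (-0.298), PSMB8 (-0.219) and PSMB9 (-0.363). For 72 h minus 48 h they turned HLA-B (-0.025) and HLA-E (-0.074). RLE size factors turned PSMB9 in these same comparisons, to -0.018 and 0.017. A count of 0, as for TAP2 in OVCAR-3 and CAOV3, allows up to 0.088 to 0.124 CPM in the libraries of those lines.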
